A study of Pseudotsuga menziesii with 83 samples.

Results

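The 100 transcripts described here were those whose level varied least in Douglas-fir (Pseudotsuga menziesii) needles across 4 spring collection dates and 11 trees. They were picked on measured values. Counts in 44 libraries were divided by each library's total and put on the usual CPM scale, transcripts with a mean count of 100 or more outside the 50 largest were ranked by the standard deviation (SD) of log2(CPM + 1), and the 100 smallest were taken. The rule ranked 12050 of 90662 features. Their low spread is therefore the way they were chosen and is given as a description, with no test.

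RNA-seq was carried out on needles of the previous season's growth from trees raised together in a common garden in southern Oregon. Trees of 3 seed sources were sampled on 10 March, 7 April, 6 May and 17 June. These were 4 trees of Oregon Siskiyou origin (ORSI, trees 44, 46, 89 and 90), 3 of Washington Cascades origin (WACA, trees 05, 08 and 39) and 4 of Washington Coast origin (WACS, trees 10, 12, 68 and 69), and each gave 1 library per date. A further WACA tree, 38, was left out by the rule. All but tree 08 have a sibling among the 11, ORSI trees 44 and 90 for example, so the trees of a source are not all unrelated. No tree had passed budbreak in March, while 3 of 11 had in April, 10 in May and 11 in June. Flowcell fc1022 carried 6 of the 11 March and 5 of the 11 April libraries and none from May or June, and the other libraries were on fc1025. Each sequencing lane held libraries of 1 date only, so date and lane cannot be told apart, also within a flowcell.

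Conifer needles stay alive through winter, and the transcript pool of the old needles is remodelled as days lengthen and buds break. Transcripts that hold their level through such a season are sought as reference transcripts, against which others are scaled. RNA-seq measures each transcript only as a share of all reads, so a steady share and a steady amount are different quantities. The features carry numbers in place of gene names in the table used here, so no function, protein or sequence can be given for any of them, and the labelled tissue could not be checked against marker genes.

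The 44 totals lay between 11293394 and 11302021 counts, a range of 0.0764% of their median, and 44380 to 55555 features had a count. The 50 largest features together took more of each library as the season went on. March libraries had a share of 18.7% ± 2.77 (SD, n = 11), April libraries 20.7% ± 3.60, May libraries 28.7% ± 4.17 and June libraries 34.0% ± 4.58. The ORSI tree 89 library of April and the WACA tree 39 library of June stood apart for the steady transcripts. The first held the lowest value of 18 of the 100, more than any other library, and 72 of the 100 were still picked when it was left out. The second held the highest value of 16, again more than any other, and 92 were picked without it. The first also departed for the ranked transcripts, whose median distance from their own means was 0.467 (log2), the highest of April. The 50 largest features took 27.0% of it, also the highest of April. They took 24.6% of the second, the lowest of June. There the median distance of the ranked transcripts was 0.321, against a June median of 0.319.

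The steadiest feature was gene8599. Its lowest, median and highest values over the 44 libraries were 49.7, 64.6 and 83.4 CPM, an SD of 0.15 on the log2(CPM + 1) scale. The low end was WACS tree 10 in June and the high end WACA tree 39 in April. Its mean was 63.0 CPM ± 6.51 in March and 66.3 ± 7.28 in April, then 66.6 ± 6.06 in May and 59.9 ± 6.52 in June (SD, n = 11 each), and the 4 dates overlapped throughout. Next came gene9960, which ran from 53.4 CPM in ORSI tree 44 in June to 87.4 CPM in ORSI tree 46 in May, with a median of 68.1. Its date means lay between 62.7 CPM in April and 71.3 CPM in May. After it came gene15014, at 98.2 to 167 CPM with a median of 132. Both of its extremes fell in ORSI trees, tree 89 in March and tree 44 in April.

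Among the 5 that followed, gene13410 ran from 60.3 to 103 CPM and gene34326 from 30.7 to 56.2 CPM. The second of these did not stay level in the mean, with 41.0 CPM ± 5.56 in March and 48.1 ± 4.50 in June, and was higher in June in 9 of 11 trees. The feature gene10617 had the same low mean at both ends of the season, 37.8 CPM ± 2.69 in March and 36.6 ± 3.22 in June, and stood higher in between, at 43.99 ± 4.43 in April and 43.7 ± 5.48 in May. The level of gene21201 was also highest in April (37.8 CPM ± 5.67) and lowest in March (31.7 ± 3.80). At a higher level, gene17564 had date means of 248.9, 249.1, 250.5 and 255.6 CPM, while its libraries ran from 166 CPM in ORSI tree 89 in April to 330.2 CPM in ORSI tree 90 in March. Its date means differed by less than the SD within any date, 28.7 CPM or more.

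**Figure D1:**
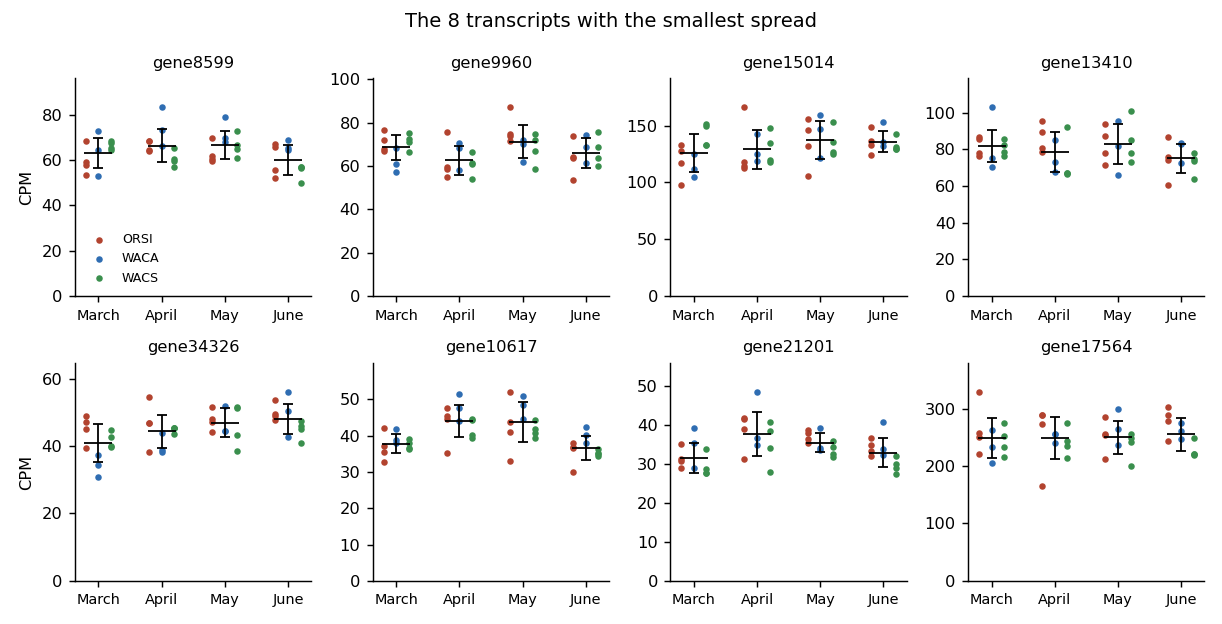
CPM of the 8 transcripts with the smallest spread on each date. Each point is 1 library, coloured by seed source, and bars give the mean and SD of the 11 libraries of a date. Points of all 4 dates overlap in every panel, as for gene8599, whose date means lay between 59.9 and 66.6 CPM.

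The members covered a wide range of levels. Mean counts ran from 102.5 for gene34696 to 5132 for gene11016, with a median of 482, against 282 over all ranked transcripts. Of the 100, 17 had a mean count under 200, against 34.9% of the ranked. The feature gene11016 lay between 316 CPM (ORSI tree 89, April) and 600.4 CPM (WACS tree 10, March), with its highest date mean in May, 505 CPM ± 37.3, and its lowest in April, 408 ± 62.8. The other abundant members were gene1608 (253 to 482 CPM), gene16646 (167 to 455 CPM) and gene15363 (224 to 389 CPM). For gene15363 the 4 date means, 311, 313, 314 and 309 CPM, differed by less than the SD within any date, 32.7 CPM or more. At the low end gene34696 ran from 6.37 to 11.4 CPM, gene34172 from 6.99 to 14.2, gene19582 from 5.84 to 14.2 and gene72011 from 7.17 to 15.1 CPM.

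The median SD of the members was 0.22 on the log2 scale (0.15 to 0.23), against 0.46 over the ranked transcripts. Taken as read counts, their values would have a median SD of 0.06 from counting alone, which is 9.54% of the median member's variance. How the near-equal totals were reached is not known, and if values were rescaled the part due to counting would be another. The share was 42.1% for gene34696, the least abundant, and 0.97% at the other end of the range. With counting error taken off, the coefficient of variation between libraries was 10.2% for gene8599 and 14.2% at the median of the members, against 32.6% over the ranked. The highest library exceeded the lowest by 1.59 to 2.73 times (median 2.00), against a median of 4.21 times over the ranked. These values describe the selection. At its threshold, gene16646 and gene10832 were the last inside, both with an SD of 0.23, and gene15921 and gene1426 the first outside, also with 0.23, so the edge of the list separates features that barely differ. To 3 digits the SD of each of these 4 was 0.230 or 0.231.

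**Figure D2:**
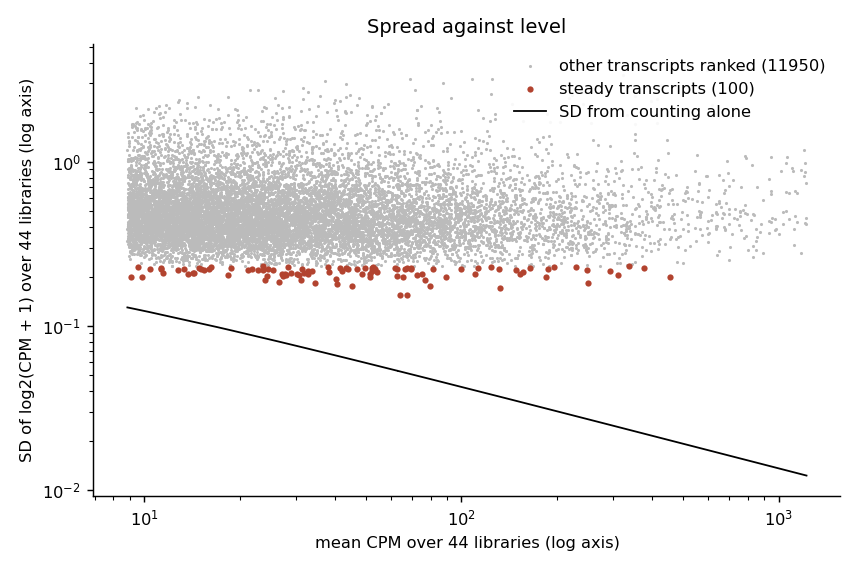
SD of log2(CPM + 1) over 44 libraries against mean CPM, both on log axes, for the 100 steady transcripts (red) and the other ranked transcripts (grey), with the SD expected from counting alone as a line. The members form the lower edge of the cloud, between 0.15 and 0.23, and lie above the counting line at all levels.

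The variation of each transcript was divided over the design. Dates took a median of 16.6% of a member's sum of squares, against 29.4% over the ranked transcripts, and seed sources 5.59% against 6.44%. Trees within a source took 25.9% against 24.2%, and the remainder, within trees between dates after the mean date pattern, took 46.04% against 27.5%. The date share reached 46.4% in gene10832, which stood at 28.0 CPM ± 3.36 in April and at 21.2 ± 2.14 in May, and was 0.17% in gene15363. Over the 100, the largest gap between any 2 date means had a median of 0.21 on the log2(CPM + 1) scale, and it was under 0.25 in 62 of the 100, against 8.98% of the ranked. A small SD limits this gap and leaves out transcripts with a large date effect. The contrasts with the ranked, in this gap and in the shares, therefore follow at least in part from the selection.

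The highest date mean of the members fell in March for 25, in April for 29, in May for 33 and in June for 13. Summed over the 100, they made up 7326 CPM ± 349 of the March libraries, 7346 ± 404 of the April, 7540 ± 300.4 of the May and 7291 ± 441 of the June libraries (SD, n = 11 each). The sum ran from 6318 CPM in ORSI tree 89 in April to 8385 CPM in WACA tree 39 in June, and the dates overlapped. Within March the 6 libraries on fc1022 had 7256 CPM ± 411 and the 5 on fc1025 7410 ± 277, and within April the values were 7218 ± 568 (n = 5) and 7453 ± 194 (n = 6). The part of the flowcell was not tested. In each library the members' signed deviations from their own means were reduced to a median, in which rises and falls cancel. It ran from -0.18 (log2) in ORSI tree 89 in April to 0.17 in WACA tree 39 in June. Taken without sign, the median deviation was highest of the 44 libraries in the first of these, at 0.25, where that of the ranked transcripts was 0.47. The signed median over the ranked transcripts moved from 0.10 ± 0.08 in March and 0.13 ± 0.14 in April to -0.07 ± 0.15 in May and -0.14 ± 0.12 in June, as the share of the 50 largest grew. Its values in single libraries ran from -0.40 to 0.32. The members were picked for a small SD on this same scale, so their narrower range follows at least in part from the selection.

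**Figure D3:**
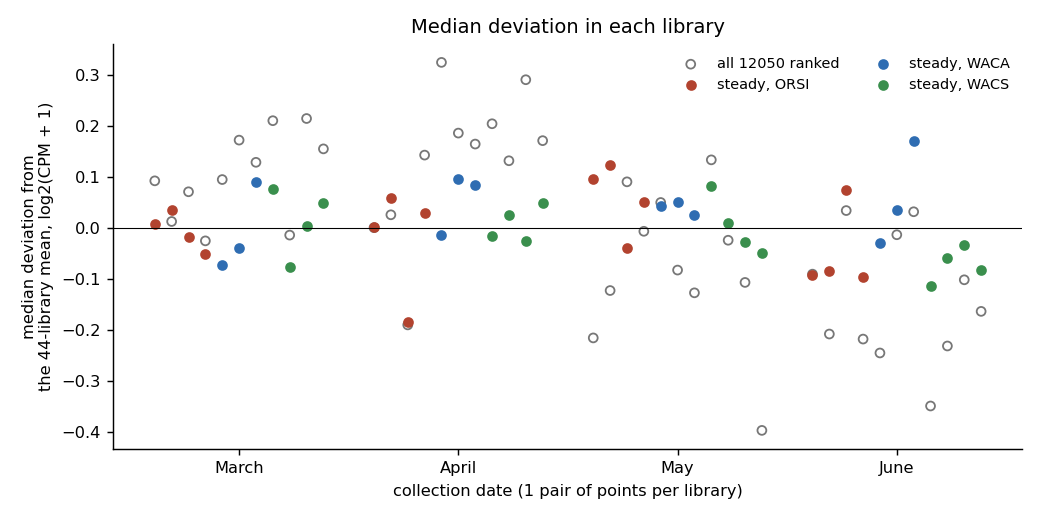
Median deviation from the 44-library mean, in log2(CPM + 1), in each library by date, for the steady transcripts (filled, coloured by seed source) and for all ranked transcripts (open). The filled points stay between -0.18 and 0.17, which follows at least in part from the selection for a small SD. The open points run from -0.40 to 0.32. They sit mostly above 0 in March and April and mostly below it in May and June.

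June was compared with March, the longest interval of the design, with edgeR on all features with a median count over 5 (29189 tested, trimmed mean of M-values (TMM) scaling, quasi-likelihood test, Benjamini-Hochberg adjusted p of at most 0.01). The outcome for the members depended on what their reads were set against. In the TMM fit, which sets each library against its typical transcript, 35 members rose and 0 fell. Over all features 15.7% were higher in June and 17.0% lower, 32.7% in all. Of the members, 63 had an unadjusted p of 0.05 or less, against 51.4% of all features. DESeq2 gave 39 members that rose and 0 that fell, with 17.0% of all features higher and 18.5% lower. With the column total as library size, the scale on which the members were picked, 0 rose and 6 fell, while over all features 7.12% were higher and 27.5% lower. On that scale 20 members had an unadjusted p of 0.05 or less, against 52.6% of all features. The median log2 change of the members was 0.26 in the TMM fit and -0.03 with the column total, while that of all features was -0.01 and -0.29. The 2 fits thus differed by a near-constant 0.28 for the members (0.27 to 0.30). This offset was not particular to them, as the median of all features shifted alike. It goes with the library sizes, whose TMM factor averaged 1.09 in March and 0.90 in June. Among the ranked transcripts, from which the members came, the TMM fit called 40.5%. Without the ORSI tree 89 library of April 39 members rose in the TMM fit, and without the WACA tree 39 library of June 31 rose, where 16.7% and 15.1% of all features were higher. The rule used these same libraries, so no weight is placed on the counts of members called. The same holds for the adjusted p of single members between dates, given below. The main fits also had no term for tree, so libraries of the same tree were treated as independent, although such libraries were correlated.

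The 3 largest rises in the TMM fit were gene4804, gene49817 and gene10610. They were picked as extremes of this fit, so their adjusted p are given as a description. The March libraries of gene4804 ran from 43.8 to 71.4 CPM (median 59.4) and the June libraries from 52.5 to 89.9 CPM (median 70.3). The dates overlapped, and 9 of 11 trees were higher in June. Its log2 change was 0.56 in the TMM fit (edgeR adjusted p = 1.64e-07) and 0.28 with the column total (edgeR adjusted p = 0.0131). For gene49817 the March libraries ran from 86.4 to 118 CPM (median 101.8) and the June libraries from 108 to 153 CPM (median 122), with 10 of 11 trees higher in June. The log2 changes were 0.55 (edgeR adjusted p = 5.93e-05) and 0.27 (edgeR adjusted p = 0.0163). The feature gene10610 went from a March median of 19.5 CPM (15.0 to 23.8) to a June median of 22.5 CPM (17.1 to 31.5) and was higher in June in 10 of 11 trees. None of the 3 passed the threshold of 0.01 with the column total.

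The members with the lowest values in the TMM fit, gene65245, gene20596 and gene7613, did not pass its threshold. Their log2 values were -0.13, -0.02 and -0.01 (edgeR adjusted p = 0.392, 0.892 and 0.906). With the column total all 3 fell, and the adjusted p of these picked members are likewise given as a description. The March libraries of gene65245 ran from 77.3 to 127 CPM (median 93.1) and those of June from 51.9 to 91.9 CPM (median 71.3), lower in June in all trees but 1. Its log2 change on that scale was -0.41 (edgeR adjusted p = 0.000209). For gene20596 the medians were 66.9 CPM in March (55.7 to 83.0) and 51.4 in June (44.8 to 66.1), a log2 change of -0.32 (edgeR adjusted p = 0.00182). For gene7613 they were 57.4 CPM in March (50.4 to 70.8) and 48.4 in June (38.9 to 54.8), and 0 of 11 trees were higher in June (log2 change -0.30, edgeR adjusted p = 0.00426). The other 3 that fell with the column total were gene24673, gene6103 and gene9818, of which gene6103 and gene9818 are named after their values were seen. Their log2 changes were -0.28, -0.31 and -0.29 on that scale, and 0.01, -0.01 and -0.01 in the TMM fit.

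**Figure D4:**
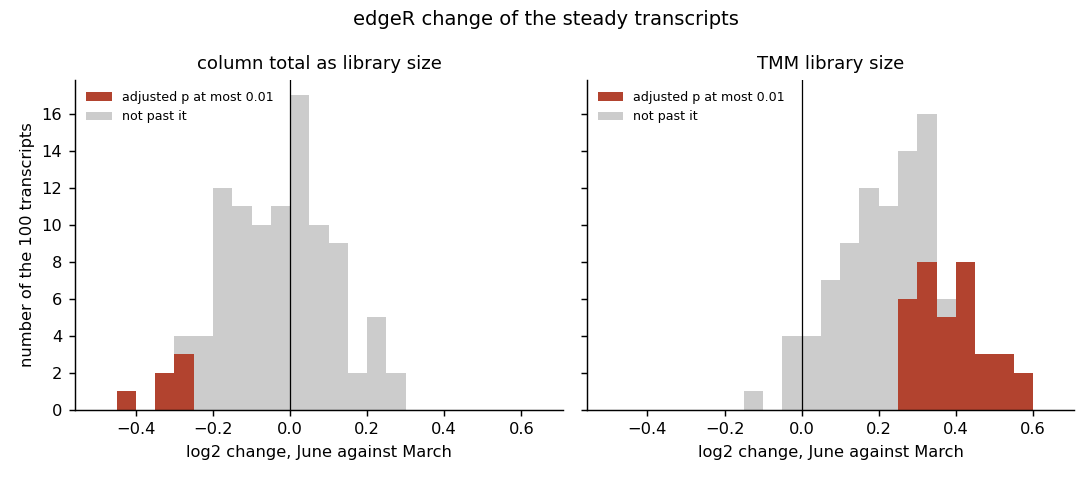
Number of the 100 steady transcripts by their edgeR log2 change from March to June, with the column total as library size (left) and with TMM library sizes (right). Red marks an adjusted p of at most 0.01. The left panel centres near 0, with 6 transcripts called lower, and the right panel lies mostly above 0, with 35 called higher.

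Across all 4 dates, edgeR called 65 of the 100 in the TMM fit, where 49.7% of all features and 60.3% of the ranked transcripts were called, and 17 of the 100 with the column total, where the shares were 49.2% and 57.3%. With flowcell as a covariate in the TMM fit the counts were 38 over the 4 dates and 19 for June against March, where 39.8% and 25.0% of all features were called. In the fc1025 libraries alone, which are fewer, they were 25 and 14, against 36.2% and 22.7% of all features. The 19 and the 14 all rose, and 11.6% and 9.79% of all features were higher in June in those fits. Among the members called over the dates on both scales were gene10617 and gene11016. Their edgeR adjusted p over the dates was 0.00097 and 0.00279 with the column total, and 0.000405 and 4.49e-08 in the TMM fit. The first was high in April and May, and the second was high in May. The largest date share belonged to gene10832, which passed with the column total (edgeR adjusted p = 0.00036) and not in the TMM fit (0.183).

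Seed sources were compared on counts summed over the 4 dates of each tree, with the 11 trees as replicates. By edgeR, 0 of the 100 members differed between sources at an adjusted p of 0.01, and 3 had an unadjusted p of 0.05 or less. The edgeR background was as low, 4 of 41096 features (0.00973%), with 9.32% at an unadjusted p of 0.05 or less. This comparison thus does not set the members apart. DESeq2 also called 0 members, though over all features it called more than edgeR, as the closing section gives. The lowest edgeR adjusted p of a member was 0.495, in gene3534. The largest source share of the sum of squares was 36.1%, in gene10610. Its tree means were 24.3 to 25.7 CPM in WACA, 20.4 to 23.4 in ORSI and 17.6 to 21.4 in WACS, so the WACA trees lay above all others. In gene25220 (28.3%) the WACA trees, at 40.8 to 47.4 CPM, again lay above those of ORSI (32.9 to 38.3) and WACS (30.9 to 39.5). In gene24673 (31.8%) the ORSI trees were lowest, at 12.5 to 15.8 CPM, and overlapped the WACS trees (14.7 to 18.2), which overlapped those of WACA (17.9 to 18.3). These 3 were picked for this pattern, and their edgeR adjusted p between sources was 0.531, 0.745 and 0.761.

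Libraries that the rule had not used came from WACA tree 38, a sibling of tree 08, which the rule did use. In the libraries its labels date to April and May, and in another whose label and supplementary record give different dates, the median member lay 0.20, 0.18 and 0.14 from its 44-library mean on the log2 scale, a mean of 0.18 ± 0.03 (SD over the 3 libraries). Over all ranked transcripts the values were 0.33, 0.34 and 0.32. Within 0.5 of their mean were 95, 94 and 99 of the 100 members, against 69.3%, 67.4% and 70.0% of the ranked. The feature gene8599 stood at 65.5, 70.2 and 63.4 CPM in these libraries, inside its range in the other trees. By contrast, gene16646 in the April library was at 221 CPM, 0.59 below its mean. It was the largest departure of a member there. As 1 tree was available, no test was made.

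Lists made on a pair of seed sources had a larger median SD in the source left out. When the rule was run without ORSI, the 100 transcripts it picked had a median SD of 0.19 where they were picked and 0.28 in the ORSI libraries, against 0.44 for all ranked transcripts there. Without WACA the values were 0.21, 0.22 and 0.43, and without WACS 0.21, 0.24 and 0.45. In the source left out, 50, 70 and 62 of the 100 were within the lowest 10% of the ranking and 6, 1 and 2 lay above its median. These lists shared 51, 68 and 55 transcripts with the 100 described here.

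The list itself turned most on the library size. With TMM library sizes the rule shared 7 of its 100 with the members, with DESeq2 size factors also 7, and with the total taken without the 50 largest features 30. Those 7 under TMM were gene34696, gene1986, gene5211, gene7613, gene6381, gene4183 and gene10832. Of these gene1986 had an SD of 0.20 by column total and 0.14 by TMM. Its libraries ran from 20.5 to 36.2 CPM, with 28.1 CPM ± 3.33 in March and 26.5 ± 4.45 in June. The 100 picked by TMM had a median log2 difference of -0.27 from March to June in CPM by column total, and 96 of them were lower in June, against -0.02 and 56 among the members. The members' own median SD rose to 0.28 by TMM, against 0.44 over the ranked transcripts. With each tree left out in turn 67 to 89 were kept, 51 of them every time. Of the 32 other settings tried, gene8599 was kept in 30 and gene24673 in 8, and 0 of the 100 were kept in all.

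**Figure D5:**
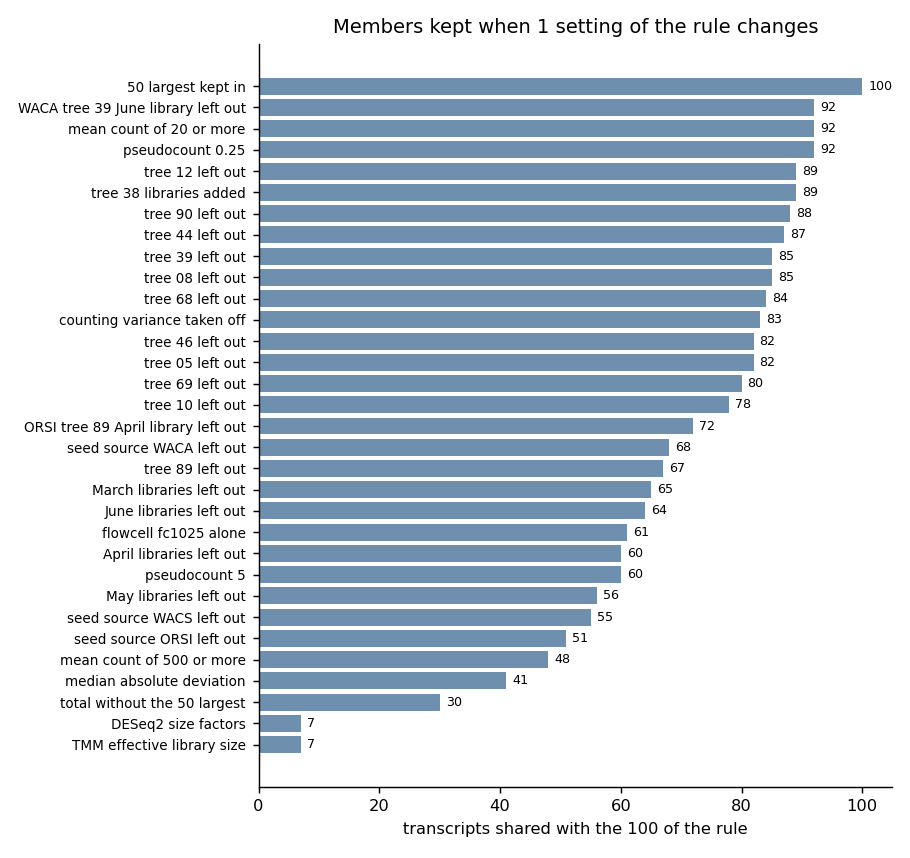
Number of the 100 steady transcripts still picked when 1 setting of the rule is changed. Bars run from 7 with TMM or DESeq2 library sizes to 100 when the 50 largest features are kept in.

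Some members were not independent of each other. Such pairs were not a particular trait of the members. Over the 44 libraries 3.23% of member pairs had a correlation over 0.5, against 11.4% of pairs of ranked transcripts. The counts of gene29714 and gene26868 kept a ratio of 1.50 to 1.69 (median 1.57) in all 44 libraries, a coefficient of variation of 3.43%, although each count varied by 16.6%. For gene14193 and gene16646 the ratio was 1.03 to 1.29, varying by 4.93% against 13.8% and 14.4%. These 4 are named after their values were seen, as the pairs that ran most closely in step of the 4950 possible. Whether such pairs share reads or are pieces of 1 transcript was not tested. In the ORSI tree 89 library of April, gene16646 had its lowest value, 167 CPM, and gene14193 was also at its lowest, 154 CPM.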

How the data were processed

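Strand-specific libraries were made from needle RNA, and the deposited table gives whole-number counts per feature for 47 libraries, each mapped to its tree and date by its labels. CASAVA 1.8 and Bowtie2 are listed in the submitters' processing notes. The reference, the counter and the step that brought the totals to 1 depth are not given in the sources used. CPM were computed by column total with a pseudocount of 1. Tests used edgeR 4.0.16 in R 4.3.3 with seed source and date as factors, and DESeq2 1.42.0 as an alternative. Features are named here by a rule: the 8 smallest SDs, the 4 highest and 4 lowest mean counts, the 3 largest rises and falls, the 3 largest source shares and those at the threshold. Others, such as gene1986, gene5211, gene6381, gene4183 and gene3534, fall outside it and were named for the results given with them. The members and the rule were chosen with earlier results of these data known. Trees pair the samples, since the same tree was sampled on each date: deviations from the source and date means correlated at 0.54 on average between libraries of 1 tree (0.25 to 0.76, 66 of 66 pairs over 0.1). Replicates are separate trees. The closest pair of libraries differed by a chi-square of 25.6 per feature, so none was counted as a duplicate. On simulated counts for June against March among 28952 to 28965 features, edgeR recovered 19 of 200 changed 1.5-fold, 164 changed 2-fold and 200 changed 4-fold, with 0, 1 and 2 false calls. The simulated counts had no tree, seed source or flowcell effect, and as many rises as falls. Their false calls therefore do not measure the error rate in the real libraries. The changed features were drawn only from those that met the minimum mean count of the rule. Each was given the spread that edgeR fits for its level. The recovered numbers therefore describe neither the members nor the whole table. In the TMM fit 35 members were called, although the largest log2 change of a member was 0.56, under 1.5-fold. A further 36 libraries, which the labels assign to building the reference, were left out.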

Additional observations from a re-analysis of the deposited data

Results flagged for a closer look

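In gene72011, 1 of the least abundant members, ORSI tree 44 had a mean of 9.25 CPM over its 4 dates, while the other ORSI trees had 10.95 to 11.28 CPM, a gap that is large for the range of 4 values (Dixon's criterion at 95%). Chance alone would mark about 5% of such groups, and 1 of the 62 groups looked at was marked. Of the 81 comparisons of named transcripts between a pair of seed sources, 0 had every tree of the first source higher in June than in March and every tree of the second lower, or the reverse.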

How the results depend on the processing

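Which transcripts count as steady moved with most settings. Of the 100, 7 were kept with TMM library sizes, 7 with DESeq2 size factors, 30 with the total without the 50 largest features, 60 with a pseudocount of 5, 48 with a mean count of 500 or more and 41 with the median absolute deviation. Without ORSI 51 were kept, without WACS 55, without March 65, without April 60, without May 56, without June 64, and with fc1025 alone 61. The members' median SD went from 0.22 to 0.28 by TMM, 0.28 by DESeq2 size factors, 0.24 with the total without the 50 largest features and 0.19 with a pseudocount of 5. The pseudocount damps low transcripts by construction, and the cause of the other moves was not tested. With flowcell as a covariate 38 members were called over the dates and 19 for June against March (39.8% and 25.0% of all features), with fc1025 alone 25 and 14 (36.2% and 22.7%), and with the column total 17 and 6 (49.2% and 34.6%), these 6 being falls in place of rises. At an adjusted p of 0.05, 57 members and 44.6% of all features were called for June against March. Added after the data were seen were the column total, the fit without the 50 largest features (46 members rose, and 15.9% of all features), those without the ORSI tree 89 April library (69 and 39 members called, 50.4% and 33.4% of all features) or the WACA tree 39 June library (63 and 31, 48.3% and 31.2%), and that with tree 38 (70 and 36, 51.2% and 32.7%). With the tree as a replicate block 73 members were called over the dates and 46 for June against March (65.6% and 44.3% of all features), and no count moved by over 1.5 times. Leaving out each tree gave 53 to 75 members and 44.4% to 50.7% of all features over the dates, and 29 to 41 and 28.9% to 32.0% for June against March. Between seed sources the 4 calls over all features became 2 with April and May alone and tree 38, 8 with edgeR's own filter, 10 with no filter, 268 by DESeq2 and 1 to 2 with a tree left out, and 0 members were called in any of these. For named transcripts, 41 of 675 adjusted p for June against March lost the threshold and 25 gained it. Taken as read counts, the low transcript gene34696 would have 42.1% of its variance from counting, the highest share of the members.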
